A study of Mus musculus with 4 samples.

Results

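Forkhead genes encode transcription factors that share a winged helix DNA-binding domain. They were taken here as the protein-coding mouse genes whose symbol is Fox followed by 1 letter and a number, which gave 44 of 21883 protein-coding genes of the GRCm38 annotation. Around each gene, peaks of H3K27ac were counted in the gene body and the 10 kb on either side. H3K27ac is an acetylated residue of histone H3 that marks active promoters and enhancers. The 2 ChIP-Seq libraries, named C2 and C3, came from mouse liver sinusoidal endothelial cells (LSECs), and each has an input library that was not used here. The genotype, strain, age, sex, and treatment of the mice behind C2 and C3 were not given in the sources used here. The study purified its mouse LSECs with beads against CD146, a surface protein of endothelial cells, and kept them in culture for some hours before harvest. It took them from *Col4a1* fl/wt mice, with or without *Cdh5* CreERT2, and from *dCas9-KRAB Cdh5* CreERT2 mice, in which the *Cdh5* promoter directs the tamoxifen-dependent Cre to endothelial cells. Nothing said that the libraries came from separate mice, so any difference between them may be technical.

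Members of the family differ widely in where they act. FOXO factors are held in the cytoplasm when PI3K and AKT signal, and in endothelial cells they are known for restraining growth and proliferation. FOXC and FOXF factors act in developing blood and lymph vessels and in mesenchyme, and FOXA factors open chromatin for the liver program of hepatocytes. FOXK and FOXN2/FOXN3 are made in many tissues, whereas most FOXB, FOXD, FOXE, and FOXI factors are known from embryonic tissues far from the liver.

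The list of C2 held 26975 peaks and that of C3 held 64498. The −log10 of every q-value was at least 2.01. Depth in reads is unknown. A merged region that held overlapping peaks of both libraries (by at least 1 bp) was called shared, and a region with a peak of C3 alone was called C3 only. The labelled cell type was set beside marker genes. Their lists were chosen with earlier results of these data known, so this is not an independent check. A shared region lay in the window of 14 of 14 LSEC markers, with a median of 6 regions per gene. Of all protein-coding genes, 58.5% had one. The other liver cell types had shared regions at 3 of 8 hepatocyte markers (*Alb*, *Hnf4a*, and *Trf*), 1 of 7 stellate cell markers (*Pdgfra*), 1 of 6 Kupffer cell markers (*Csf1r*), 0 of 4 cholangiocyte markers, and 1 of 5 lymphocyte markers (*Cd79a*). Neither library had a peak at 3 hepatocyte, 3 stellate cell, 5 Kupffer cell, 3 cholangiocyte, and 3 lymphocyte markers. In the same order, 2, 3, 0, 1, and 1 markers had a C3 peak and no C2 peak, against 11.4% of all genes. The part of other cells in the peaks described next was not tested.

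Shared H3K27ac regions lay at a smaller share of Forkhead genes than of all protein-coding genes. Among the Forkhead genes with such a region were *Foxo1*, *Foxo3*, *Foxc1*, *Foxn3*, and *Foxp1*. A shared region lay in the window of 18 of the 44 Forkhead genes (40.9%), against 58.5% of all protein-coding genes. Peaks of C2 lay at the same number of Forkhead genes, 18, against 58.6% of all genes. Peaks of C3 lay at 29 Forkhead genes (65.9%), against 69.9% of all genes. Thus 11 Forkhead genes (25%) had a C3 peak and no C2 peak, a state found at 11.4% of all genes, and 15 had no peak in either library. With the lists cut to equal numbers of their strongest peaks, the 11 became 2. The share of all genes in that state was not counted with those lists. The 5′ end was an annotated start for 28 of the 44 Forkhead genes and for 17491 of all 21883 genes. For the others either gene end counted, which gives more room for a hit, so shares at the 5′ end lack a like base. Within 1 kb of the 5′ end, a shared region was present at 15 Forkhead genes (34.1%), against 44.9% of all genes. A C3 peak lay there at 25 (56.8%), against 54% of all genes, and 10 of the 44 (22.7%) had a C3 peak there and no C2 peak, against 9.42% of all genes. These shares are descriptions and were not tested. They rest on a single condition and 2 libraries, and genes that lie next to each other share regions.

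**Figure D1:**
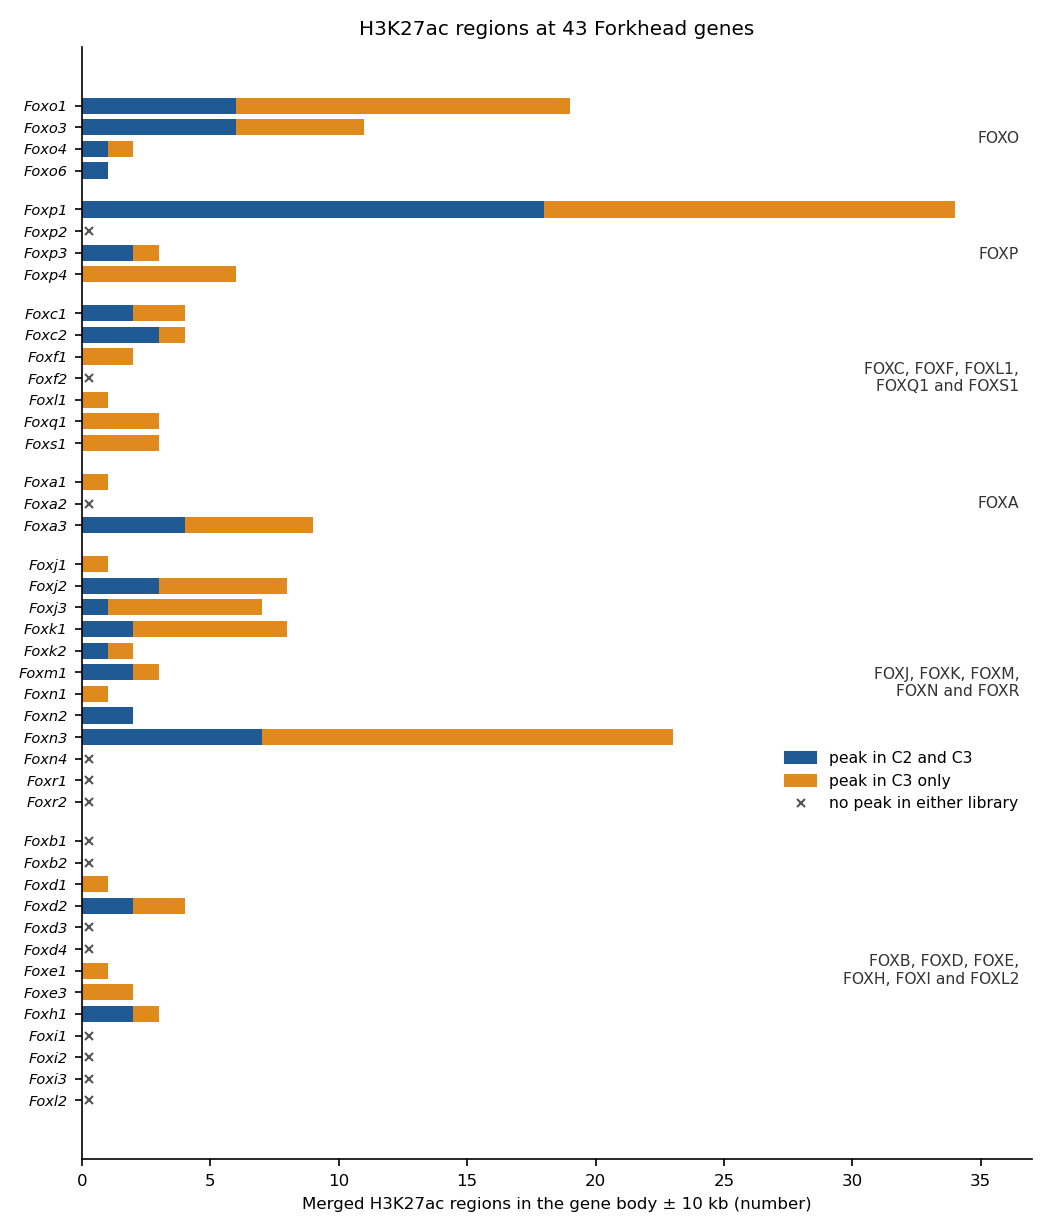
Number of merged H3K27ac regions in the gene body ± 10 kb of 43 of the 44 Forkhead genes, grouped by subfamily; blue bars count regions with a peak of C2 and C3, orange bars those with a C3 peak only, and crosses mark genes with no peak in either library. *Foxp1* has 18 shared regions, *Foxn3* 7, and *Foxo1* and *Foxo3* 6 each, while most genes of the lowest group have none.

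Gene length goes with these counts. Forkhead genes are short, with a median of 5.19 kb against 17.2 kb for all protein-coding genes. Among genes under 10 kb, 5 of 26 Forkhead genes had a shared region, against 42.5% of all such genes. A C3 peak only was found at 9 of the 26, and the like share of all genes under 10 kb was not counted. A shared region lay at 7 of 10 Forkhead genes of 10 to 50 kb, against 66.9%. Among genes of 50 kb or more it was 6 of 8, against 69%. The Forkhead share with a shared region was thus below that of all genes in the shortest class and near it in the longer classes. Over the 44 Forkhead genes, length and the number of shared regions had a Spearman rho of 0.516, and over all genes 0.291. Both are descriptions, since a longer window can hold more regions.

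In all, 65 shared regions, 102 C3-only regions, and 1 C2-only region lay in the Forkhead windows. The C2-only region was at *Foxc1*. Of 167 C3 peaks in the windows, 65 overlapped a C2 peak, which is 38.9% (95% Wilson interval, 31.9% to 46.5%, covering the counting of peaks only). Over all C3 peaks the share was 37.7%. Of 71 C2 peaks, 70 overlapped a C3 peak. In C3, the shared regions were stronger than the C3-only regions. The strongest C3 peak of a shared region had a median fold enrichment of 20.8, against 6.19 for C3-only regions. Fold enrichment is the ratio of signal to background that the authors' peak caller gave. Ranked among all C3 peaks, the shared regions had a median at percentile 75.7 (range, 17.2 to 98.1) and the C3-only regions at 30.8 (range, 0.298 to 77.5). These ranges overlapped. The strongest C3-only region, in the body of *Foxo1*, had a fold enrichment of 22.5. Fold enrichment in C2 and C3 had a Spearman rho of 0.73 over the 65 shared regions, a description of points that come from the same pair of libraries. Shared regions had a median width of 707 bp, against 701 bp for all shared regions, and 31 of the 65 (47.7%) lay more than 2.5 kb from any protein-coding 5′ end, against 56.4% of all shared regions.

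**Figure D2:**
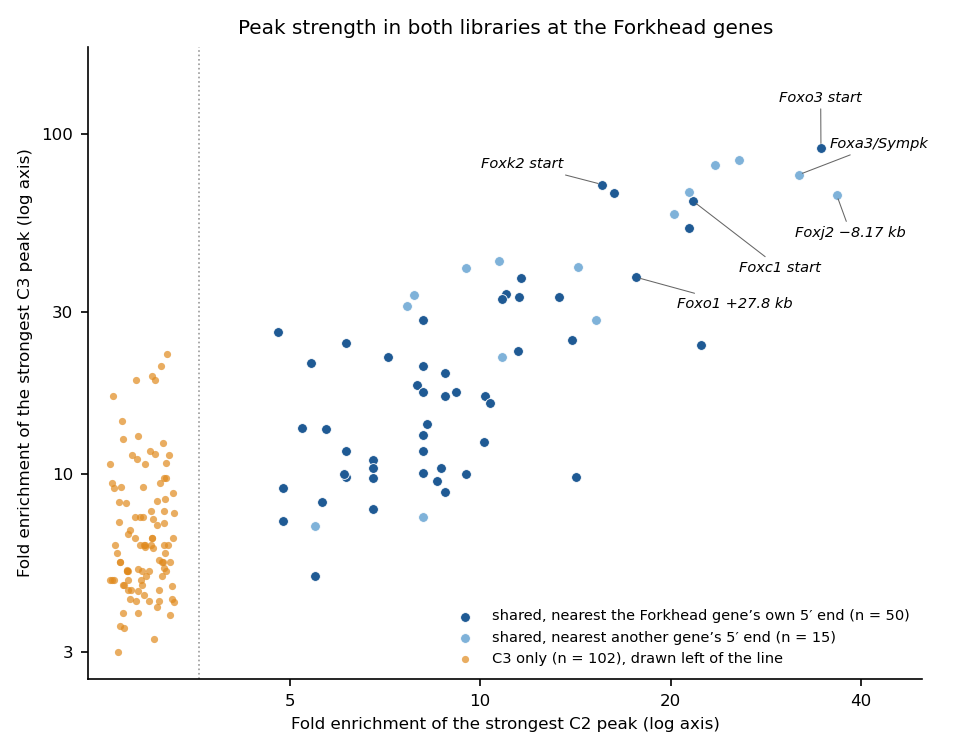
Fold enrichment of the strongest C2 peak (x axis) and C3 peak (y axis) in each region of the Forkhead windows, both on log axes; dark blue points are the 50 shared regions nearest the Forkhead gene's own 5′ end, light blue points the 15 nearest another gene's, and orange points the 102 C3-only regions, which have no C2 value and are drawn left of the dotted line with random sideways spread. Regions strong in one library tend to be strong in the other, and the start of *Foxo3* has the highest C3 value, 91.2.

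The promoter letters of these genes help to show which starts carried the mark. RefSeq promoters of GRCm38.p6, from 250 bases before to 50 bases after a start, were at hand for 28 of the 44 genes, 33 promoters in all. A shared region overlapped 9 of the 33 promoters, a C3 peak alone overlapped 3, and 21 had no peak. Of 21262 protein-coding promoters, the numbers were 9068, 1624, and 10569. Many promoters rich in the dinucleotide CG are active in many tissues. The CpG ratio is the number of CG dinucleotides divided by the number expected from the C and G content. It had a median of 0.943 in the 9 promoters with a shared region and 0.548 in the 21 without a peak, against 0.818 and 0.24 for all protein-coding promoters of those classes.

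Shown first are 4 promoters overlapped by a shared region, then 3 with no peak, all written 5′ to 3′ on the strand of the gene, with every CG in capitals. They are *Foxo3* (chr10:42276646-42276945, minus strand), *Foxo1* (chr3:52268087-52268386, plus strand), *Foxc1* (chr13:31806396-31806695, plus strand), a start in the middle part of *Foxp1* (chr6:99028249-99028548, minus strand), another start of *Foxp1* (chr6:99266466-99266765, minus strand), *Foxf2* (chr13:31625566-31625865, plus strand), and *Foxp3* (chrX:7579426-7579725, plus strand).
Foxo3: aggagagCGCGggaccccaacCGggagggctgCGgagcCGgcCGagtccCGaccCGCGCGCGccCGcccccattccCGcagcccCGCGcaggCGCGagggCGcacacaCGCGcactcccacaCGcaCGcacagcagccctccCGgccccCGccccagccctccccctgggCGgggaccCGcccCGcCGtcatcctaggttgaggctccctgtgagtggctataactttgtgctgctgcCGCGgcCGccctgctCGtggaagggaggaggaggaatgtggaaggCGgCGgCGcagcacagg
Foxo1: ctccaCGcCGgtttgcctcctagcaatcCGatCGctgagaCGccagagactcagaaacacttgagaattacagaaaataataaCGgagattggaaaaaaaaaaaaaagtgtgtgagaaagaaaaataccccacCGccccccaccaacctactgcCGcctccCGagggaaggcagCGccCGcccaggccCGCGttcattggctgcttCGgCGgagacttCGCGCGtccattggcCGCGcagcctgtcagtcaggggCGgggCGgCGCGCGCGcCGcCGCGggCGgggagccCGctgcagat
Foxc1: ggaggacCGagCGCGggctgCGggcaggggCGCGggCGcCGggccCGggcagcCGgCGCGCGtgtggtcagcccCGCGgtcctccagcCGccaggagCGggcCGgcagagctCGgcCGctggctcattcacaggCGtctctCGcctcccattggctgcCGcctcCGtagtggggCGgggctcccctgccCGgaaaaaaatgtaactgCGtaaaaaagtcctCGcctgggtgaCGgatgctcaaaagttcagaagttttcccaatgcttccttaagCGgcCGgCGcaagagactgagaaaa
Foxp1, start with a shared region: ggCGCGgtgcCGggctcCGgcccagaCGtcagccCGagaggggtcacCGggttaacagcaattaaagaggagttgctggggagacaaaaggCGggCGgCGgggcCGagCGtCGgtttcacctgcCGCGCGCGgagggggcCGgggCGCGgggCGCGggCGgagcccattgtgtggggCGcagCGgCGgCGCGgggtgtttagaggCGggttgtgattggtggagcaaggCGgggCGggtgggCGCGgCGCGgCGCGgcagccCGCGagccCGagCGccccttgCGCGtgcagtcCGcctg
Foxp1, start with no peak: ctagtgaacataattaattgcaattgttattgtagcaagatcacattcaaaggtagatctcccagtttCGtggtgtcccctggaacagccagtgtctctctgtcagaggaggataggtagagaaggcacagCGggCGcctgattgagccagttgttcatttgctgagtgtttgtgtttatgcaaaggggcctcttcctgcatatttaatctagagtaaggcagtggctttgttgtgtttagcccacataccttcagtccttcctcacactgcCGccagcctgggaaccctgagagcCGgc
Foxf2: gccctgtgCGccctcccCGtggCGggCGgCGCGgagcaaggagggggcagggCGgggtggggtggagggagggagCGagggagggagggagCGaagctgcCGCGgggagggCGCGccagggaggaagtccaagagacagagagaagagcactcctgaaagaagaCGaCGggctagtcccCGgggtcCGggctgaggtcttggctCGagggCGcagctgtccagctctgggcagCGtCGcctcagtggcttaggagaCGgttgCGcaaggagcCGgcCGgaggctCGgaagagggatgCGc
Foxp3: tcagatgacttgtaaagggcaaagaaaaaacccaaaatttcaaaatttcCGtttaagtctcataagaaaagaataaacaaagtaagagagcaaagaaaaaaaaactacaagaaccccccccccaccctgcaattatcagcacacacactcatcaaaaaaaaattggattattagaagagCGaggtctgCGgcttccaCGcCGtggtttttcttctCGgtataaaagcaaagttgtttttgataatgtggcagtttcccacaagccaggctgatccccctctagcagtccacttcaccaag

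The *Foxp1* start with a shared region held 44 CG dinucleotides in its 300 bases (CpG ratio, 1.11), and the *Foxp1* start without a peak held 5 (0.282). The promoters of *Foxo3*, *Foxo1*, and *Foxc1* held 35, 31, and 32, and that of *Foxp3* held 6. A high CpG ratio did not by itself mark the promoters with H3K27ac. *Foxf2* held 27 (0.787) and had no peak. Of 21 Forkhead promoters with a CpG ratio of at least 0.6, a shared region overlapped 8 (38.1%), against 74.9% of all promoters of that class. A C3 peak alone overlapped 3 and no peak overlapped 10, against 912 and 1629 of all 10136 promoters of that class. The 10 belong to *Foxa1*, *Foxa2* (2 promoters), *Foxd3*, *Foxd4*, *Foxf2*, *Foxi3*, *Foxl2*, *Foxn4*, and *Foxr1*. Of 12 with a ratio under 0.6, a shared region overlapped 1, at another start of *Foxp1*, against 13.2% of all such promoters. The value of 0.6 was chosen after these ratios had been seen.

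**Figure D3:**
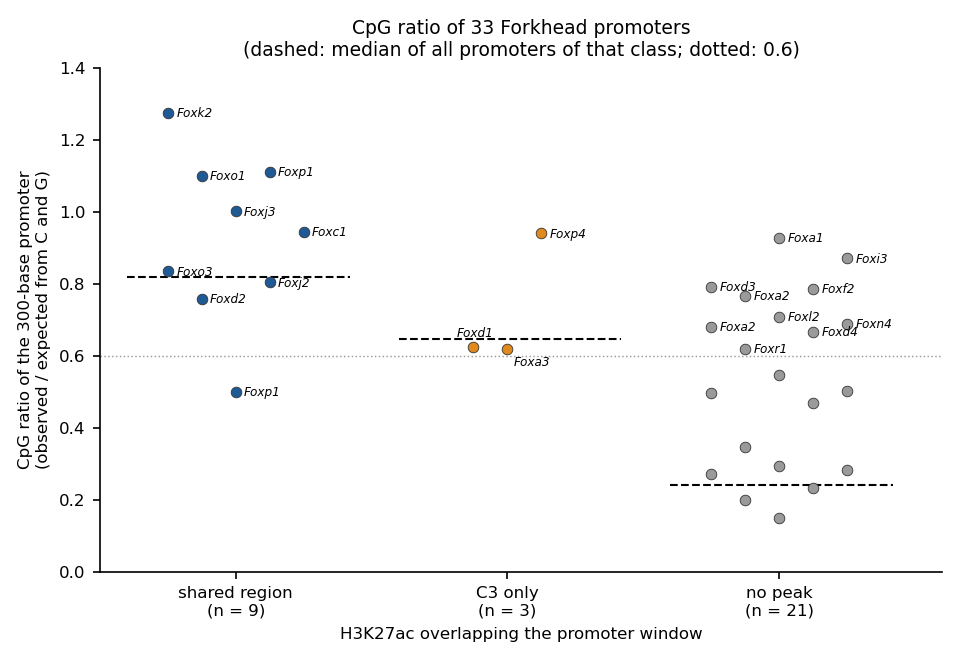
CpG ratio (y axis) of the 33 Forkhead promoters of 300 bases, by whether the promoter window overlapped a shared region, a C3 peak only, or no peak (x axis); each point is 1 promoter, the dashed line is the median of all protein-coding promoters of that class, and the dotted line marks 0.6. Of the 21 promoters without a peak, 10 lie at or above 0.6, among them *Foxa1* and *Foxi3*. Over all protein-coding genes, 1629 of 10569 promoters without a peak do.

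The promoters were also searched on both strands for the forkhead core GTAAACA and the ETS core CCGGAAG, which do not overlap in sequence. GTAAACA was in 1 of the 33 Forkhead promoters and in 3.01% of 21262 protein-coding promoters. CCGGAAG was in 0 of the 33 and in 11.6% of all. The shorter core GTAAAC was in the same 1 Forkhead promoter and in 7.13% of all. That promoter is the one of *Foxa1* (chr12:57546062-57546361, minus strand), with the forkhead core in capitals, beginning 141 bases before the start.
Foxa1: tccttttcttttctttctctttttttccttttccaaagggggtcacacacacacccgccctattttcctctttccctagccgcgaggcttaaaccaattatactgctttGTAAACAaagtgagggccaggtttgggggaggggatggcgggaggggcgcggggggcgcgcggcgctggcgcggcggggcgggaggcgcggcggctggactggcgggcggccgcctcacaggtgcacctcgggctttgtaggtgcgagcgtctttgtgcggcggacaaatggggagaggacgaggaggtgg
A match is a run of letters and does not show that a factor binds there. *Foxa1* had a C3 peak 159 bp from this start with a fold enrichment of 6.19, and no C2 peak.

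All 4 FOXO genes had a shared region in their windows (58.5% of all genes do). But *Foxo4* lost its own with a flank of 5 kb and with equal numbers of peaks from each library. Without a flank, both *Foxo4* and *Foxo6* lost theirs. Among the 4, *Foxo3* had the broadest of the 65 shared regions, which also had the highest C3 value. *Foxo3* encodes a factor for cell cycle arrest and stress resistance. The shared region at its start was 3418 bp wide, which is percentile 99.8 of the widths of all shared regions. Its fold enrichment was 34.6 in C2 and 91.2 in C3, percentiles 96.9 and 98.1 of the lists. The other 5 shared regions at *Foxo3* lay inside the gene, from 2.04 to 45.0 kb after the start. The one at 5.37 kb stood out in C2, with fold enrichments of 22.4 in C2 and 24.0 in C3. Together 5.64% of the *Foxo3* window was covered, against a median of 1.20% over all genes and 0% over the Forkhead genes.

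*Foxo1*, which restrains vascular growth and metabolism and mediates the insulin response in hepatocytes, also had 6 shared regions, which covered 4.93% of its window. Where overlap had to be reciprocal, covering 50% or more of both peaks, the number was 1 at *Foxo1* and 4 at *Foxo3*. At the *Foxo1* start the shared region was 1906 bp wide with fold enrichments of 11.0 in C2 and 33.9 in C3. The strongest region of the gene was not at the start. It lay 27.8 kb inside the gene, with 17.6 in C2 and 37.9 in C3. Others lay 5.40 kb before the start and 1.42, 25.1, and 65.0 kb after it, and 13 further regions were C3 only. *Foxo6*, known mainly from brain, had 1 region, 0.365 kb from an end of the gene, with 10.2 in C2 and 16.96 in C3. *Foxo4*, a close relative on chromosome X, had a shared region only at the 5′ end of *Il2rg*, 7.18 kb away. At its own 5′ end only C3 had a peak, with a fold enrichment of 11.4. Thus 3 of the 4 FOXO genes had a shared region within 1 kb of the 5′ end (44.9% of all genes do).

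**Figure D4:**
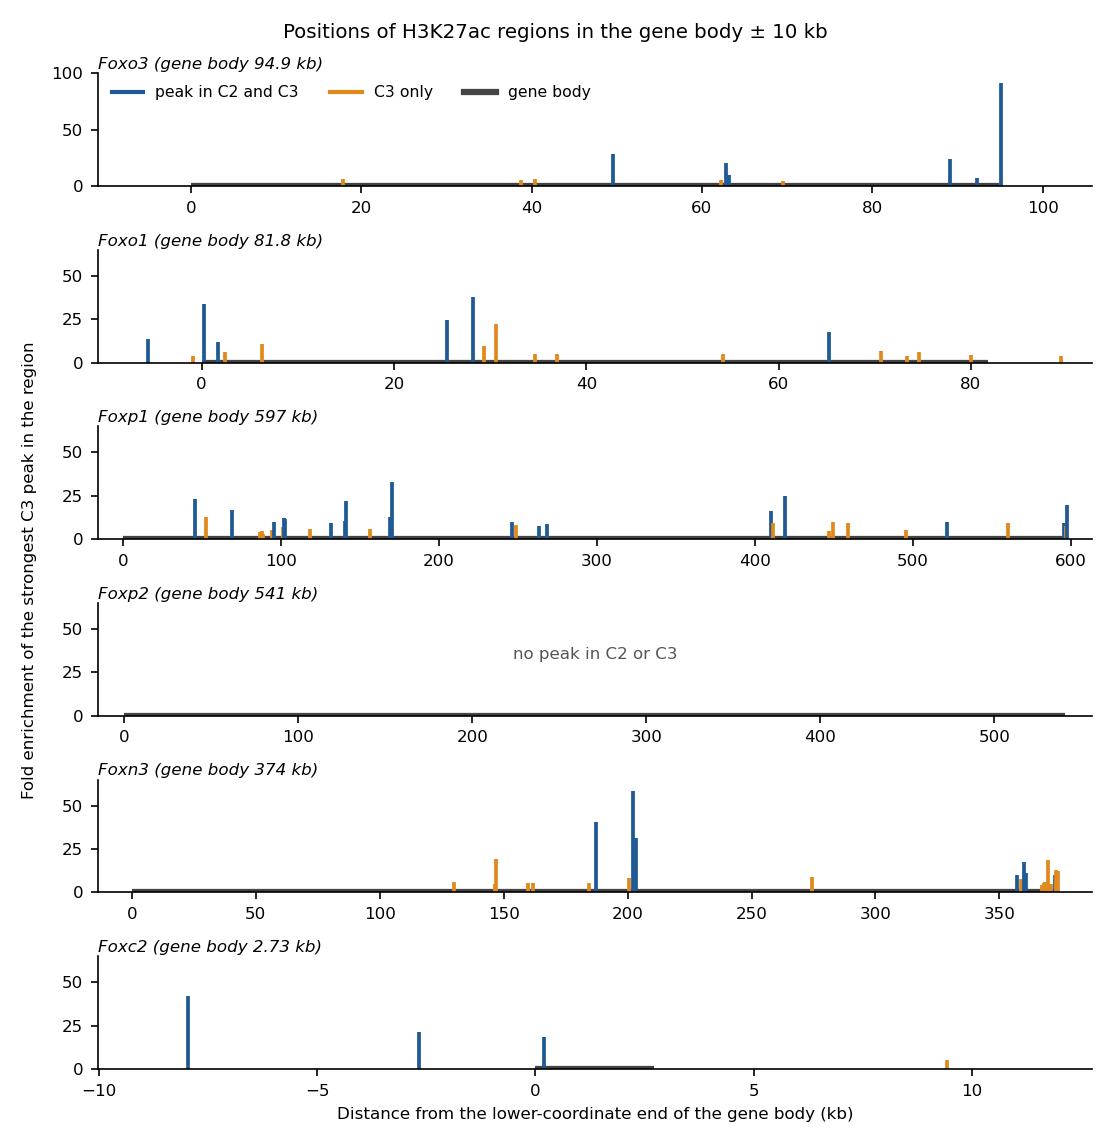
Positions of H3K27ac regions in the windows of *Foxo3*, *Foxo1*, *Foxp1*, *Foxp2*, *Foxn3*, and *Foxc2*; the x axis is the distance in kb from the lower-coordinate end of the gene body (dark line), each vertical line is a merged region (blue, peak in C2 and C3; orange, C3 only), and its height is the fold enrichment of its strongest C3 peak on the y axis, which reaches 100 for *Foxo3* and 65 for the others. The regions of *Foxp1* are spread along most of its body, and *Foxp2* has none.

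The FOXP genes gave the widest contrast within a subfamily. *Foxp1* encodes a repressor made in endothelium, heart, and lymphoid cells, and its gene body of 597 kb held 18 shared regions and 16 C3-only regions. All 18 were nearer to a start of *Foxp1* than to that of any other gene. They ran from 45.3 kb past the lower-coordinate end of the body to its other end, along most of the gene, as the map of regions shows. Of the 226 genes that span 500 kb or more, 4 had more shared regions than *Foxp1*, and the median was 0. The 18 shared regions of *Foxp1* became 10 with reciprocal overlap and 10 with equal numbers of peaks. The ranking was not repeated with these counts. No single *Foxp1* region was among the strongest of the family. The highest C3 value was 32.8 (10.8 in C2), at chr6:99095088-99096292, and the highest C2 value was 14.2, at chr6:99171353-99172212. Of its 3 annotated starts, 2 had shared regions. Fold enrichments were 8.13 in C2 and 11.7 in C3 at the CG-rich start printed before. They were 4.88 and 9.12 at the start nearest the upstream (5′) end of the gene.

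*Foxp2*, known from brain circuits for vocal learning, has a body of similar length, 541 kb, and held no peak of either library. Its nearest shared region lay 278 kb away. Of those 226 long genes, 55.3% had no shared region and 34.5% had no C3 peak, so a long gene without peaks was no exception. *Foxp4* had 6 C3-only regions, 4 of them within 1.36 kb of its start with fold enrichments up to 10.7, and the strongest, with 14.3, lay 50.8 kb inside the gene. *Foxp3*, the lineage factor of regulatory T cells, had shared regions in its window only at the 5′ ends of *Ppp1r3f* and of *Ccdc22* and *Cacna1f*, with C2 values of 9.49 and 15.3. At neither of its own 5′ ends was there a peak in either library.

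Among the vessel and mesenchyme genes of the FOXC, FOXF, FOXL1, FOXQ1, and FOXS1 group, 2 of 7 had a shared region, both FOXC genes. Over all genes 58.5% had one. A C3 peak and no C2 peak lay at 4 of the 7, against 11.4% of all genes. *Foxc1* and *Foxc2* act in vascular development, and *Foxc2* in lymphatic valves. The shared region over the *Foxc1* start had fold enrichments of 21.7 in C2 and 63.5 in C3, the fifth highest C3 value at a Forkhead 5′ end, and another region 5.06 kb before the start had 5.71 and 13.6. *Foxc2* had 7.93 and 18.2 at its 5′ end and 5.41 and 21.3 at a region 2.44 kb away. Another region in its window, with 10.7 and 42.2, lay at the 5′ end of *Mthfsd*. With these, 9.95% of the *Foxc2* window was covered, the highest share of the 44 genes, but none of the 3 regions was shared with reciprocal overlap.

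These genes lie in a pair of clusters. On chromosome 13, *Foxq1*, *Foxf2*, and *Foxc1* lie within 252 kb, with no other protein-coding gene in between. The 2 shared regions there were both at *Foxc1*. *Foxq1* had 3 C3-only regions with fold enrichments of 5.86 to 6.49, and *Foxf2*, a gene of pericytes in the brain, had no peak. On chromosome 8, *Foxf1*, *Foxc2*, and *Foxl1* lie within 46.3 kb together with *Mthfsd*. All 3 shared regions were those described for *Foxc2*. *Foxf1*, needed for lung and gut vessels, had C3-only regions with 6.84 and 7.49, and *Foxl1*, a gene of gut mesenchyme, had one with 5.02 that also lay in the window of *Foxc2*. *Foxs1*, known from pericytes, had 3 C3-only regions with values up to 7.41. In both clusters the FOXC gene thus had the mark in both libraries, and at the other Forkhead genes C3 alone had peaks or neither library had any.

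The FOXA genes are known in the liver from hepatocytes and bile duct cells. Of the 3, 1 had a shared region (58.5% of all genes do), *Foxa3*, at a 5′ end next to that of *Sympk*. *Foxa2* had no peak, and its nearest shared region lay 75.1 kb away. *Foxa1* had the single C3 peak given before. *Foxa3* had 4 shared regions in its window, but all were nearer to another gene's 5′ end, 3 to *Irf2bp1* and 1 to *Sympk*. The *Sympk* region was strong, with fold enrichments of 31.9 in C2 and 75.8 in C3, and lay 0.396 kb before the *Foxa3* start, so it counts among the 15 genes with a shared region within 1 kb of the 5′ end. Over the *Foxa3* start itself only C3 had a peak, with 7.23. Which of the adjacent genes such a region belongs to cannot be told apart from peak positions.

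Of the FOXJ, FOXK, FOXM, FOXN, and FOXR genes, 7 of 12 had a shared region, 6 of them at the 5′ end. Over all genes the shares were similar, 58.5% and 44.9%. The FOXK genes encode repressors of autophagy and regulators of glucose use that are made in most tissues. *Foxk2* had fold enrichments of 15.6 in C2 and 71.0 in C3 at its start, and *Foxk1* had 11.5 and 33.2, and neither gene had a shared region with reciprocal overlap. The *Foxk1* window also held a stronger region, with 23.5 and 81.1, at the 5′ end of *Ap5z1*. *Foxm1*, a driver of mitotic genes, had the weakest start in C2 of these, with 4.80 (percentile 3.13) against 26.2 in C3, and *Rhno1* has its 5′ end within 1 kb of the same region. A region at *Tulp3* in the same window had 25.7 and 84.0.

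*Foxn2* and *Foxn3* are close relatives, and *Foxn3* is known from cell cycle checkpoints. At *Foxn2* a region of 2055 bp covered the 5′ end, with fold enrichments of 21.4 in C2 and 53.0 in C3. *Foxn3* had 7 shared regions in a body of 374 kb, none of them at the start that the promoter table gives. Of these, 3 lay nearest *Gm51999* inside *Foxn3*, the strongest with 20.3 and 58.3. The other 4 lay 97.1 to 112 kb before that start, near the upstream (5′) end of the gene body, where the last had 6.10 in C2. That end is not in the promoter table and was not counted as a 5′ end here. *Foxj2* and *Foxj3* are made in many tissues. *Foxj3* had 11.6 and 37.8 at its start, and *Foxj2* had 8.25 and 14.0 at 0.048 kb from its own. The strongest region in the *Foxj2* window, 1810 bp wide with 36.6 and 66.2, lay 8.17 kb before its start and 7.84 kb from the 5′ end of *Slc2a3*. It had the highest C2 value of the 65 shared regions.

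The remaining genes of this group had no shared region. *Foxj1*, the master gene of motile cilia, had a C3 peak over its 5′ end with a fold enrichment of 18.9, the highest of the C3 peaks at Forkhead 5′ ends without a C2 peak. *Foxn1*, the factor of thymic epithelium, had a C3 peak only near *Unc119*, with 6.12. *Foxn4*, *Foxr1*, and *Foxr2* had no peak.

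Among the 14 remaining genes, mostly FOXB, FOXD, FOXE, and FOXI genes, 9 had no peak in either library. Of all protein-coding genes, 69.9% had a C3 peak. This is also the largest of the groups. The 9 included *Foxb1*, *Foxb2*, *Foxd3*, *Foxd4*, *Foxi1*, *Foxi2*, *Foxi3*, and *Foxl2*, among them factors of the neural crest (*Foxd3*) and ovary (*Foxl2*). A shared region lay at 2 of the 14, *Foxd2* and *Foxh1* (58.5% of all genes have one). *Foxd2*, known from mesenchyme and kidney, had fold enrichments of 13.3 in C2 and 33.2 in C3 over its start, and a small region 0.972 kb before it had 5.49 and 5.02. *Foxh1*, a partner of SMAD2 in Nodal signaling, had 16.3 and 67.1 at its 5′ end. That region also lay within 1 kb of the 5′ end of *Ppp1r16a*, and the other one in its window lay at *Cyhr1* and *Kifc2*. Genes with C3 peaks only were found here as well, with values up to 9.44 at *Foxd1* of kidney stroma, 11.4 at *Foxe1* of the thyroid, and 10.7 at *Foxe3* of the lens. The last of these peaks lay in the windows of both *Foxe3* and *Foxd2*, whose bodies are 15.5 kb apart.

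C3 signal at the 5′ ends was also split by whether C2 had a peak there. Peak strength went together in the 2 libraries over the shared regions, so this split is no separate result. All genes show it too. The strongest C3 peak within 1 kb of the 5′ end had a median fold enrichment of 33.9 (range, 12.4 to 91.2) at the 15 Forkhead genes that also had a C2 peak there, against 47.1 at 9747 protein-coding genes of that kind. At the 10 Forkhead genes with a C3 peak only, the median was 8.42 (range, 5.54 to 18.9), against 8.79 at 2061 genes of that kind. The ranges of the Forkhead genes overlapped at *Foxj1*. In order of C3 value, *Foxo3* was followed by *Foxa3* (by its *Sympk* region, 75.8), *Foxk2* (71.0), *Foxh1* (67.1), and *Foxc1* (63.5). With 1 value per library, no neighbors in this order can be said to differ.

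By median, the nearest shared region lay farther from genes with no peak than from those with a C3 peak only. Both lack a shared region within 10 kb by definition. Genes with no peak also lack any C3 peak there, and each shared region holds one. The order thus follows in part from how the genes were sorted. Distances over all genes of these kinds were not counted. From the bodies of the 15 genes with no peak, the nearest shared region lay a median of 75.4 kb away. For 1 of them, *Foxr1*, it was within 25 kb, at 15.8 kb. From the 11 genes with a C3 peak only, it lay a median of 23.7 kb away (range, 10.9 to 310 kb), and for 7 it was within 25 kb. *Foxa1* had the longest distance of these 11. The distances of both kinds of genes overlapped.

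Genes that act with the Forkhead factors had shared regions in their windows across the lists examined. All 15 genes of signaling upstream of FOXO had a shared region (58.5% of all genes do), 12 of them within 1 kb of the 5′ end (44.9% of all genes), with a median of 3 regions per gene. Among them were *Insr*, the insulin receptor, with 7, *Tek*, the angiopoietin receptor, with 6, *Igf1r* with 5, and *Sgk1*, a kinase that phosphorylates FOXO factors, with 4. All 16 known FOXO targets had a shared region, 14 at the 5′ end, with 1 to 4 per gene. *Cdkn1a*, the cell cycle inhibitor p21, had 4, which covered 17.3% of its window, *Angpt2*, an antagonist of TEK, had 3, and *Klf2* and *Cited2* had 2 each. All 16 genes of partner proteins had a shared region, 14 at the 5′ end, with 8 at *Smad3*, 4 at *Sin3a*, a corepressor that binds FOXK factors, and 1 at *Bap1*. With reciprocal overlap the counts fell to 10 of 15, 15 of 16, and 15 of 16, beside 39.5% of all genes, and peaks with a q-value up to 1e-05 gave 14 for the first. Many genes of these lists are expressed in most tissues, and the lists hold genes that were chosen with earlier results known.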

How the data were processed

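H3K27ac was measured by ChIP-Seq in 2 LSEC libraries (C2 and C3, replicates 2 and 3), and 2 inputs were not used here. The authors called peaks per library. The submitters' processing notes name cutadapt 0.4.4, BWA 0.7.17, Picard 1.67, MACS2 2.0.10, bedtools 2.27.1, and the build mm10 (GRCm38). Their settings, and whether the inputs entered the calls, were not given in the sources used here. The sample labels describe sonication and a ligation kit, and the study's methods a tagmentation-based protocol. The deposited lists have 10 columns with a fold enrichment (a ratio to background), the −log10 of the p-value and q-value, and a score that rescales the −log10 q. Read depth is unknown, a deeper or stronger library yields more peaks, and intervals cover the counting of peaks only.

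Peaks were merged across libraries, and a region was shared where a C2 and a C3 peak overlapped by at least 1 bp. Windows were gene bodies ± 10 kb in the RefSeq gene table of GRCm38.p6. The 5′ end was the start in the RefSeq promoter table (28 of 44 Forkhead genes, 17491 of 21883 genes) or, without an entry, either gene end. A region near the 3′ end of a gene can then count as near its 5′ end. Exons and introns were not told apart, and the sequences of peaks were not analysed here. Regions that straddle a window edge were counted. Percentiles are ranks of fold enrichment within a library's list. No test between conditions was possible, so counts are set beside those over all protein-coding genes. The members and lists were chosen with earlier results of these data known. Every Forkhead gene was counted, those with a shared region in most detail, and other genes were named from the lists (LSEC, hepatocyte, hepatic stellate cell, Kupffer cell, cholangiocyte, and lymphocyte markers, signaling upstream of FOXO, FOXO targets, and partner proteins) or where their 5′ end lay in or nearest to a region of a Forkhead window. Overlap counting was checked on simulated peaks. Calculations ran in Python 3.11.15 with pandas 2.3.3, numpy 2.4.6, and scipy 1.17.1, and figures were drawn with matplotlib 3.10.9. Values of 2 genes are not reported here.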

Additional observations from a re-analysis of the deposited data

How the results depend on the processing

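No paired analysis was possible because the libraries form 1 condition and no value came from a test. Depth is unknown and limits every count. The alternatives were a reciprocal overlap of at least 50%, peaks with a q-value up to 1e-05, lists trimmed to equal numbers of their strongest peaks, flanks of 0, 5, or 25 kb, regions nearest a gene's own 5′ end, other definitions of the 5′ end, the shorter motif, each library alone, and, chosen after seeing the data, a peak of each library inside the window. Of 302 alternative values of 35 results, 221 stayed within 1.5 times the value reported or 1 counting interval, and 69 of the 81 that did not concern single genes or lists. The 18 genes with a shared region became 12 with reciprocal overlap (39.5% of all genes), 17 with equal peak numbers, 14 without a flank, and 26 (65.4% of all genes) with 25 kb flanks, and 18 to 29 with 1 library alone. *Foxc2*, *Foxj3*, *Foxk1*, *Foxk2*, *Foxn2*, and *Foxp3* were lost with reciprocal overlap. *Foxo4* was lost with equal peak numbers and with 5 kb flanks, and *Foxa3*, *Foxo4*, *Foxo6*, and *Foxp3* without a flank. With reciprocal overlap, shared regions fell to 28, distal ones to 17, genes with a shared 5′ end to 6, and the share of C3 peaks overlapping a C2 peak to 16.8%, and equal peak numbers raised that share to 79.4%. With 1 library alone, regions were 71 (C2) to 167 (C3), distal ones 36 to 101, genes with one at the 5′ end 15 to 25, and the median covered share 0 to 2.05%. The 11 genes with a C3 peak only became 2 with equal peak numbers, *Foxj1* and *Foxp4*, and 5 with 25 kb flanks.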
